A study of Homo sapiens with 8 samples.

Results

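The genes described here are 10 transcriptional targets of p53 that act in DNA repair, deoxynucleotide supply, redox and nutrient control: XPC, DDB2, RRM2B, POLH, FDXR, SESN1, SESN2, TP53INP1, TRIAP1 and ZMAT3. They were chosen by name, as known p53 targets, but with earlier results of these data known. Each had 1 entry among the 29991 entries of the expression table. All 10 lay above the table's lowest value (5 on the log2 scale) in every library, so no filter on low values removed any of them.

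Polyadenylated RNA was sequenced from MCF10A, an immortalized but non-tumorigenic human breast epithelial line, after transfection with 1 of 4 siRNA preparations. The groups were siControl (a control siRNA), siLATS1/2 (against the paired kinases LATS1 and LATS2), sip53 (against p53) and siLATS1/2/p53 (against all of them together). Each group held 2 libraries, made from separate batches of cells, and a replicate number marks the same batch in every group. All cells were thus transfected MCF10A cells, knocked down rather than knocked out, and the labels used here give no siRNA sequence, no number of siRNAs per target, no dose and no time. A single cell line was used. In bulk RNA, fewer cells expressing a gene and less of its RNA per cell cannot be told apart.

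The tumour suppressor p53 is a transcription factor that is held low by MDM2 and accumulates after DNA damage and other stress. Beside arrest and death genes it switches on genes that recognise and repair lesions, supply deoxynucleotides outside S phase, and restrain oxidants and the growth kinase mTORC1. LATS1 and LATS2 are the Hippo pathway kinases that restrain the coactivators YAP and TAZ, and LATS2 has been linked to p53 through its binding to MDM2.

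Promoter sequence was examined for the decamer that p53 binds in pairs (the p53 consensus decamer, 10 bases, its own reverse complement, so that a search of 1 strand covers both). Windows of 300 bases, 250 before and 50 from a RefSeq transcription start site, were taken from RefSeq in build GRCh38.p14, whereas the expression table rests on hg19. Of the 10 genes, 8 matched by symbol, with 13 windows in all; RRM2B and TP53INP1 did not match. A complete decamer stood in 3 of the 8 genes (37.5%) and in 23.1% of their windows, against 8.06% of all 27305 genes and 6.63% of all 35116 windows. A pair of decamers, with up to 13 bases between them and at most 2 mismatches outside the core, was found in DDB2 alone, against 1.81% of all genes. The 3 matches are printed because these letters are what a reader would look up for these genes; the decamers are in capitals and flanking bases in lower case. The DDB2 match covers positions 6 to 26 counted from a start site as position 1, the SESN1 decamer begins at position -49 and the FDXR decamer at position -11. A match is a string of letters and shows no binding, and the lack of one concerns only these windows: those of CDKN1A and MDM2, which are established p53 targets, also held no complete decamer.
DDB2 (chr11:47214975-47215003, GRCh38.p14, plus strand): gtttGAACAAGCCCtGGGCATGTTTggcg
SESN1 (chr6:109008989-109009238, GRCh38.p14, minus strand): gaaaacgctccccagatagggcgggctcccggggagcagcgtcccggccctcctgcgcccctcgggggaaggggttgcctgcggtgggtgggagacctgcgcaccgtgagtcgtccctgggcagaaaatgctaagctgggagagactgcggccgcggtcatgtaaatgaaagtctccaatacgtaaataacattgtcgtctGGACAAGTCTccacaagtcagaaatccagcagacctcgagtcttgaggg
FDXR (chr17:74872995-74873244, GRCh38.p14, minus strand): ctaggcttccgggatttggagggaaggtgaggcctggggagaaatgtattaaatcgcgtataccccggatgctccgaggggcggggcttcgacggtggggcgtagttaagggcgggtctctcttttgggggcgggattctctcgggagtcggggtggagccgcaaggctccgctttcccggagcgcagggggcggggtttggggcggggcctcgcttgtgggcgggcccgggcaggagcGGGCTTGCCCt

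The libraries matched their labels as far as these data show. LATS1 was between 9.54 and 9.94 on the log2 scale in the 4 libraries without LATS1/2 siRNA and between 7.90 and 8.10 in the 4 with it, and LATS2 was between 9.74 and 10.22 against 8.63 and 8.81. The p53 target CDKN1A, the cell cycle inhibitor p21, was between 12.29 and 13.07 without p53 siRNA and between 9.82 and 10.16 with it. All 12 markers of basal breast epithelium were above the lowest value in every group, with a summed linear level of 257000 to 393000. Above it in at least 1 library were 3 of 5 luminal hormone receptor markers (summed level 355 to 593; PGR was at it in all 8), 2 of 6 fibroblast markers (COL1A1 and DCN, 168 to 1090) and 1 of 7 blood and endothelial markers (CD14, 180 to 534). Depth, estimated from the spacing of low values, ran from 11.3 to 37.1 M (mega) reads. The shallowest libraries were siLATS1/2/p53 replicate 1 and siControl replicate 1 (12.1 M), and the lowest of the 10 genes in any library still rested on an estimated 80 reads.

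p53 siRNA alone lowered most of the 10 genes, and it did so again on top of LATS1/2 siRNA. In both comparisons all 10 genes were lower in both p53 siRNA libraries than in both libraries of the reference group, which 18% of the 12315 entries tested also were in sip53 against siControl and 15.2% in siLATS1/2/p53 against siLATS1/2. The fall passed the test (limma, Benjamini-Hochberg adjusted p under 0.05 over all entries tested) for 7 genes in sip53 against siControl: DDB2, RRM2B, POLH, SESN1, SESN2, TP53INP1 and ZMAT3. Of all entries, 2.1% fell by that test. The same 7 genes passed in siLATS1/2/p53 against siLATS1/2, where 3.22% of all entries fell. The 10 genes were chosen with earlier results of these data known, so the shares of all entries are given as description only. The median difference over the 10 genes was -0.79 and -0.86 on the log2 scale in the respective comparisons, against 0.06 and 0.15 over all entries tested. With the batch of cells as a block, all 10 genes passed in sip53 against siControl (10% of all entries fell there) and 9 in siLATS1/2/p53 against siLATS1/2 (9.72%), the exception being XPC (adjusted p = 0.0634, limma). Within each batch taken alone, all 10 differences were below 0 in both comparisons.

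**Figure D1:**
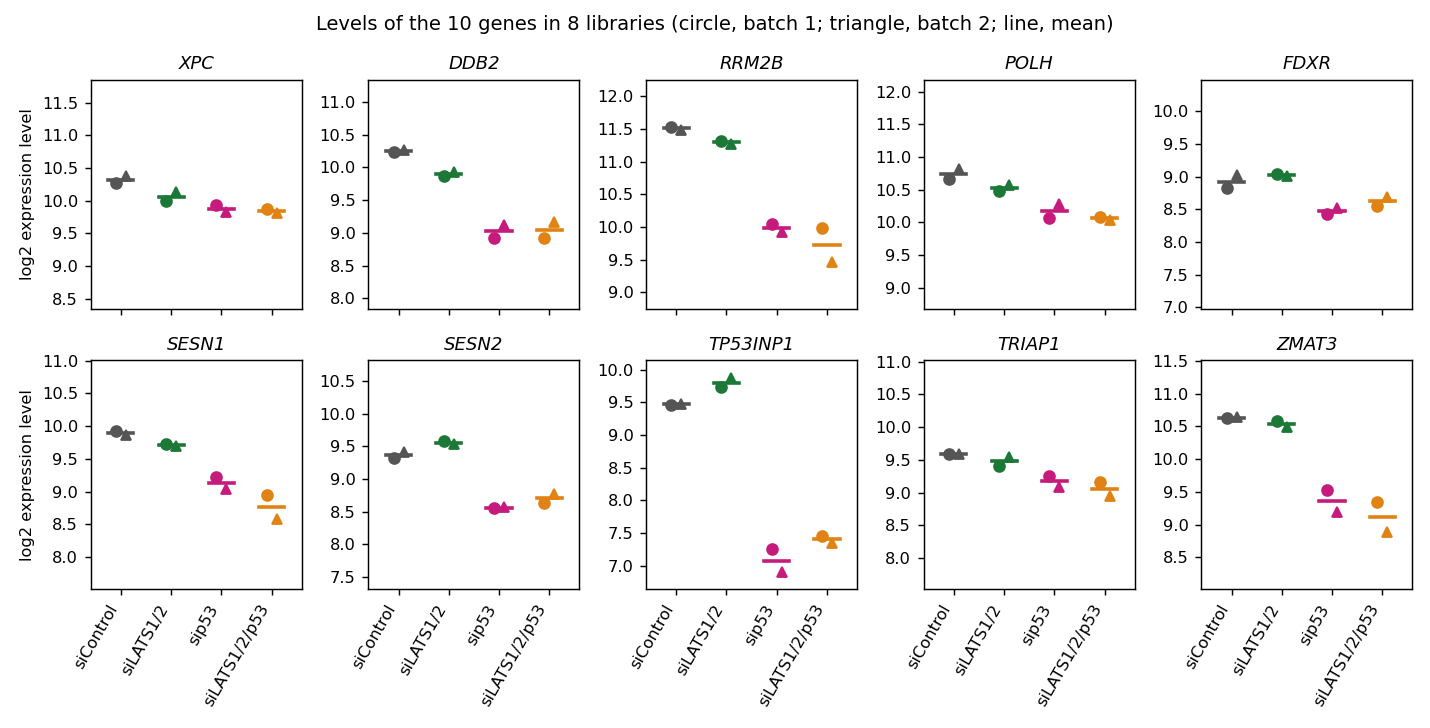
Deposited log2 level of each of the 10 genes (one panel per gene) in the 8 libraries, grouped by siRNA, with circles for batch 1, triangles for batch 2 and lines for group means; each panel has its own axis range. In every panel the 4 libraries with p53 siRNA lie below the 4 without it.

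**Figure D2:**
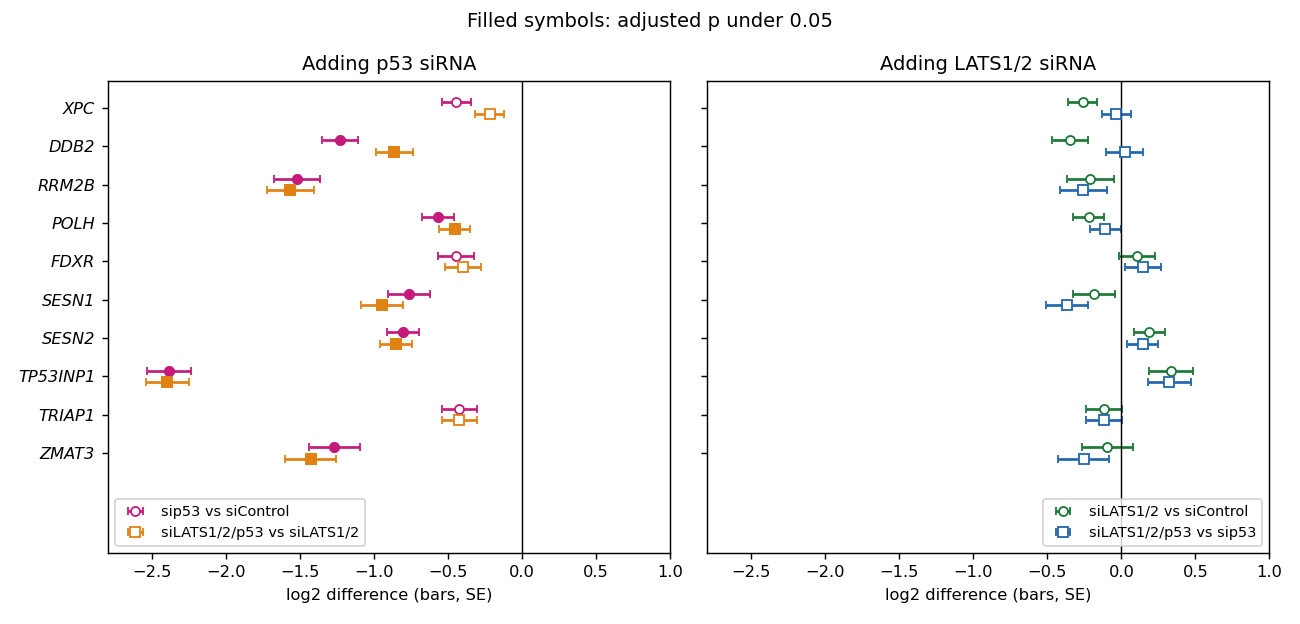
Log2 difference with its standard error for each gene, on the left for p53 siRNA added to control or to LATS1/2 siRNA, on the right for LATS1/2 siRNA added to control or to p53 siRNA; filled symbols have an adjusted p under 0.05 (limma). Filled symbols appear on the left for 7 genes in each comparison and nowhere on the right.

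The nucleotide excision repair genes differed in how far they fell. DDB2 encodes the damage sensor that, with DDB1, finds ultraviolet lesions in chromatin. Its log2 level was 10.24 and 10.27 in siControl, 9.87 and 9.94 in siLATS1/2, 8.92 and 9.13 in sip53, and 8.92 and 9.17 in siLATS1/2/p53. The control libraries were highest, the siLATS1/2 libraries next, and the sip53 and siLATS1/2/p53 libraries lowest and overlapping. DDB2 fell by 1.23 ± 0.12 (log2 difference ± SE) to 42.6% of the control level in sip53 (adjusted p = 0.00708, limma), and fell by 0.86 ± 0.12 in siLATS1/2/p53 against siLATS1/2 (adjusted p = 0.00783, limma). XPC encodes the protein that recognises distorted helices and starts repair across the whole genome. It was at 10.26 and 10.38 in siControl, 9.99 and 10.13 in siLATS1/2, 9.93 and 9.83 in sip53, and 9.87 and 9.82 in siLATS1/2/p53. The order was the same as for DDB2, over a narrower range. XPC was at 73.4% of control in sip53, a difference of -0.45 ± 0.10 that did not pass as tested (adjusted p = 0.0537) and passed with the block (0.00277, limma). Without the block it also passed when the libraries were rescaled to the same median ratio (0.0354). So it did when only entries above the floor in all 8 libraries were fitted (0.0472, limma). Against siLATS1/2 its difference in siLATS1/2/p53 was -0.22 ± 0.10 (adjusted p = 0.165, limma), and it passed there only when the libraries were rescaled to the same median ratio (0.0484, or 0.00455 with the block as well).

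POLH encodes DNA polymerase eta, which copies past ultraviolet lesions that stall the replicative polymerases. Its levels were 10.66 and 10.82 in siControl, 10.48 and 10.57 in siLATS1/2, 10.07 and 10.27 in sip53, and 10.09 and 10.04 in siLATS1/2/p53. Libraries with p53 siRNA were all lower than libraries without it, and the p53 siRNA groups overlapped each other. POLH fell by 0.57 ± 0.11 to 67.4% of control in sip53 (adjusted p = 0.0374, limma) and fell by 0.46 ± 0.11 in siLATS1/2/p53 against siLATS1/2 (0.0301). Of the 7 genes that passed, POLH had the smallest fall in both comparisons, and leaving out any 1 library ended its call in sip53 against siControl (adjusted p from 0.0626 without siLATS1/2/p53 replicate 1 to 0.24 without sip53 replicate 1).

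RRM2B encodes p53R2, the small subunit of ribonucleotide reductase that supplies deoxynucleotides for repair and for mitochondrial DNA in cells that are not replicating. It stood at 11.53 and 11.48 in siControl, 11.32 and 11.27 in siLATS1/2, 10.05 and 9.92 in sip53, and 9.99 and 9.47 in siLATS1/2/p53. The spread between replicates was widest in siLATS1/2/p53, whose replicate 2 was the lowest of all. RRM2B fell by 1.52 ± 0.16 to 34.8% of control in sip53 (adjusted p = 0.00798, limma) and fell by 1.57 ± 0.16 in siLATS1/2/p53 against siLATS1/2 (0.00479). RRM2, the S-phase small subunit that RRM2B replaces outside S phase, moved the other way. It rose by 0.71 ± 0.10 in sip53 (adjusted p = 0.0168) and by 1.05 ± 0.10 in siLATS1/2/p53 against siLATS1/2 (0.00419, limma).

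The sestrins, stress proteins that act through the GATOR complexes and AMPK to restrain mTORC1, both fell. SESN1 was at 9.93 and 9.87 in siControl, 9.73 and 9.69 in siLATS1/2, 9.23 and 9.04 in sip53, and 8.95 and 8.58 in siLATS1/2/p53. None of the 4 groups overlapped another, and SESN1 descended in that order. SESN2 was at 9.32 and 9.41 in siControl, 9.58 and 9.53 in siLATS1/2, 8.55 and 8.57 in sip53, and 8.63 and 8.78 in siLATS1/2/p53. For SESN2 the order differed, with siLATS1/2 highest and sip53 lowest. In sip53 SESN1 fell by 0.77 ± 0.14 to 58.8% of control (adjusted p = 0.0371) and SESN2 fell by 0.81 ± 0.11 to 57.2% (0.0162, limma). In siLATS1/2/p53 against siLATS1/2 the differences were -0.95 ± 0.14 for SESN1 (adjusted p = 0.00863) and -0.85 ± 0.11 for SESN2 (0.00619, limma).

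TP53INP1, a stress protein with roles in p53 phosphorylation and in autophagy, had the largest fall of the 10 genes in both comparisons. Its levels were 9.46 and 9.48 in siControl, 9.73 and 9.87 in siLATS1/2, 7.25 and 6.91 in sip53, and 7.46 and 7.35 in siLATS1/2/p53. The siLATS1/2 libraries were highest and the sip53 libraries lowest, with no overlap between any of the groups. TP53INP1 fell by 2.39 ± 0.15 to 19.1% of control in sip53 (adjusted p = 0.00147) and fell by 2.40 ± 0.15 in siLATS1/2/p53 against siLATS1/2 (0.00176, limma), the 4th lowest difference of 12315 entries in each. Its call held in both comparisons whichever single library was left out. ZMAT3, a zinc finger protein that binds RNA and affects splicing and mRNA stability, was at 10.63 and 10.64 in siControl, 10.59 and 10.49 in siLATS1/2, 9.54 and 9.20 in sip53, and 9.34 and 8.88 in siLATS1/2/p53. The libraries with p53 siRNA were all lower than those without, and their groups overlapped. ZMAT3 fell by 1.27 ± 0.17 to 41.5% of control in sip53 (adjusted p = 0.0168) and fell by 1.43 ± 0.17 in siLATS1/2/p53 against siLATS1/2 (0.00585, limma).

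The mitochondrial genes, like XPC, had smaller differences than the genes that passed in these comparisons. FDXR, the reductase that passes electrons from NADPH to ferredoxins for steroid and iron-sulfur cluster synthesis, was at 8.82 and 9.02 in siControl, 9.03 and 9.01 in siLATS1/2, 8.43 and 8.52 in sip53, and 8.55 and 8.69 in siLATS1/2/p53. Its siControl and siLATS1/2 libraries overlapped, and both p53 siRNA groups were lower. TRIAP1, a small protein of the mitochondrial intermembrane space that works with PRELI family proteins in lipid transfer, was at 9.60 and 9.59 in siControl, 9.41 and 9.54 in siLATS1/2, 9.26 and 9.08 in sip53, and 9.16 and 8.95 in siLATS1/2/p53. Again the libraries with p53 siRNA were lowest. FDXR was at 73.5% of control in sip53, a difference of -0.44 ± 0.12 (adjusted p = 0.0942, and 0.00862 with the block, limma). TRIAP1 was at 74.5%, a difference of -0.42 ± 0.12 (0.104, and 0.0102 with the block). In siLATS1/2/p53 against siLATS1/2 the differences were -0.40 ± 0.12 for FDXR (adjusted p = 0.0653, and 0.00896 with the block) and -0.42 ± 0.12 for TRIAP1 (0.0564, and 0.00605 with the block, limma). There FDXR and TRIAP1 also passed on rescaling without the block (0.0359 and 0.0227, limma). TRIAP1 passed too when only entries above the floor in all 8 libraries were fitted (0.0489, limma).

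**Figure D3:**
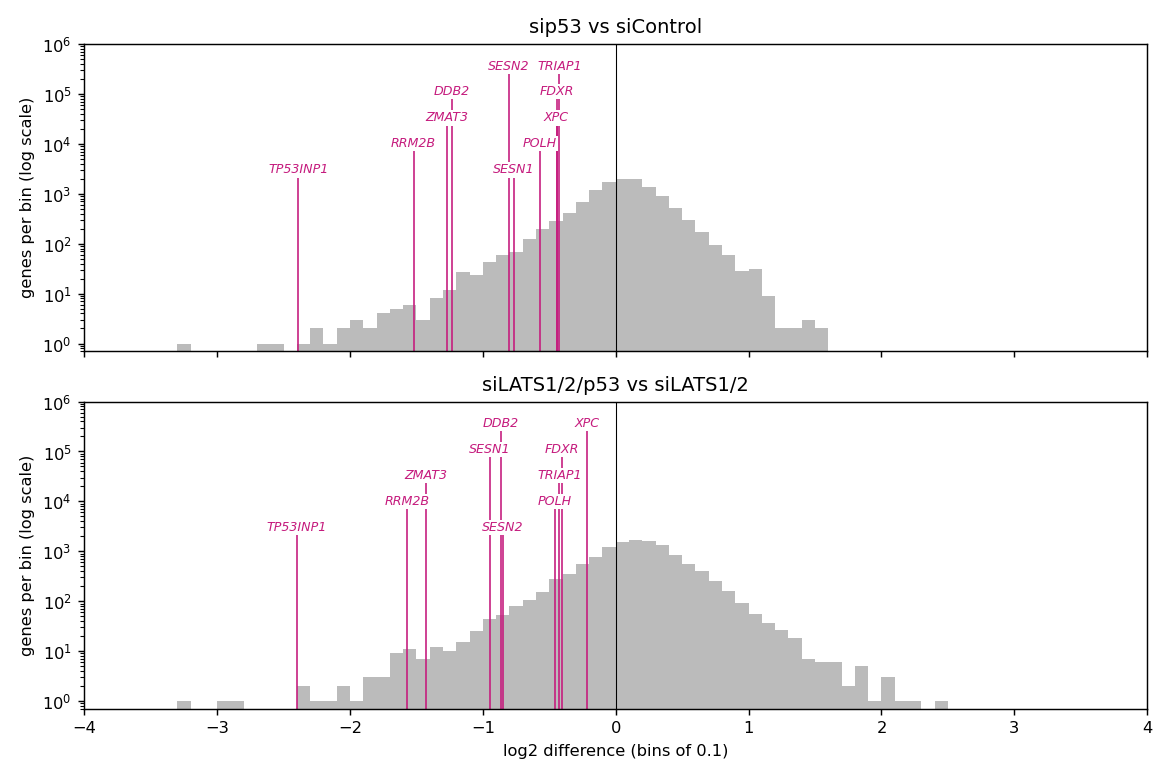
Histogram of the log2 difference of all 12315 entries tested (log count axis), with a line for each of the 10 genes, for sip53 against siControl above and siLATS1/2/p53 against siLATS1/2 below. All 10 lines lie left of 0 in both panels, with TP53INP1 farthest left.

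All 10 genes lay toward the low end of the ranked differences, over a wide span of ranks. Ranked from the lowest of 12315 differences in sip53 against siControl, TP53INP1 was at 4, RRM2B at 28, ZMAT3 at 41 and DDB2 at 49. The sestrins followed at 202 (SESN2) and 226 (SESN1), then POLH at 455, XPC at 716, FDXR at 718 and TRIAP1 at 793. In siLATS1/2/p53 against siLATS1/2, with other libraries throughout, TP53INP1, RRM2B and ZMAT3 were again lowest, at 4, 33 and 43, and XPC was the highest at 1611. How many of the 10 genes passed depended on the libraries included, since each group had 2. In sip53 against siControl the count went from 7 to 1 without sip53 replicate 1, 2 without sip53 replicate 2, 2 without siControl replicate 1, 3 without siControl replicate 2, and 5 or 6 without any other library. In siLATS1/2/p53 against siLATS1/2 it went from 7 to 1 without siLATS1/2 replicate 1, 4 without siLATS1/2 replicate 2, 5 without siLATS1/2/p53 replicate 1 and 6 without siLATS1/2/p53 replicate 2.

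With all knockdowns together, siLATS1/2/p53 against siControl, 9 of the 10 genes fell, where 5.48% of all entries did, and all 10 passed with the block (13.8% of all entries). All 10 were lower in both libraries than in both controls, as were 19.3% of all entries. The log2 difference was -2.06 ± 0.15 for TP53INP1 (adjusted p = 0.000835), -1.78 ± 0.16 for RRM2B (0.00143), -1.52 ± 0.17 for ZMAT3 (0.00275) and -1.21 ± 0.12 for DDB2 (0.00213, limma). For SESN1, POLH, SESN2, TRIAP1 and XPC it was -1.14 ± 0.14, -0.68 ± 0.11, -0.66 ± 0.11, -0.54 ± 0.12 and -0.48 ± 0.10. FDXR, at -0.30 ± 0.12, did not pass (adjusted p = 0.145, and 0.0418 with the block, limma). This comparison shares its control libraries with sip53 against siControl and is no independent repeat of it. XPC and TRIAP1 lost their calls when either siControl or either siLATS1/2/p53 library was left out (adjusted p from 0.0523 to 0.11), and the other 7 kept theirs.

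With LATS1/2 siRNA alone none of the 10 genes passed the test (limma), where 4.89% of all entries fell and 2.81% rose. At an unadjusted p under 0.05 there were 2 genes, XPC and DDB2, a share no higher than the 25.2% of all entries. The libraries did not overlap for 9 of the genes: 7 were lower in siLATS1/2 than in siControl (as were 34.8% of all entries) and 2, SESN2 and TP53INP1, were higher (17.1%). The differences ran from -0.35 ± 0.12 for DDB2 (adjusted p = 0.131, limma) to 0.33 ± 0.15 for TP53INP1 (0.210), with a median of -0.15 over the 10 genes and -0.07 over all entries. With the batch block, DDB2 (adjusted p = 0.0136) and XPC (-0.26 ± 0.10, adjusted p = 0.0393) passed as lower, as did 21.4% of all entries. When the libraries were also rescaled, these calls were lost and TP53INP1 passed as higher (adjusted p = 0.0280, limma). CDKN1A, at 0.42 ± 0.19 (adjusted p = 0.224), passed with the block (0.00218, limma). The remaining members ranged from POLH at -0.22 ± 0.11 to SESN2 at 0.19 ± 0.11.

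Among cells with p53 siRNA, adding LATS1/2 siRNA (siLATS1/2/p53 against sip53) also moved none of the 10 genes past the threshold (limma), where 1.12% of all entries fell and 2.54% rose. SESN1 was the only one with an unadjusted p under 0.05, as had 18% of all entries. It was lower in both siLATS1/2/p53 libraries, by -0.37 ± 0.14 (95% interval -0.70 to -0.04, adjusted p = 0.227), and passed with the block (0.0206, limma), where 9.42% of all entries fell. TP53INP1 was higher by 0.32 ± 0.15 (95% interval -0.02 to 0.67, adjusted p = 0.305, limma). Libraries did not overlap for SESN1 on the lower side (22.7% of all entries) and for FDXR, SESN2 and TP53INP1 on the higher side (25.5%). The largest other difference was -0.26 ± 0.16 for RRM2B.

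The test of whether p53 siRNA acted differently with and without LATS1/2 siRNA (the interaction term) called none of the 10 genes and 0 of 12315 entries (0%). With the block it called 250 entries (2.03%), and 81 when the libraries were also rescaled, with none of the 10 genes among them. None of the 10 had an unadjusted p under 0.05, against 6.55% of all entries. DDB2 came nearest: its fall was 0.37 ± 0.17 smaller with LATS1/2 siRNA (95% interval -0.04 to 0.78, adjusted p = 0.749, and 0.164 with the block, limma). That difference was 0.36 in batch 1 and 0.37 in batch 2. Over all entries the interaction had a median of 0.10, and DDB2 ranked 10845 from the lowest of 12315. For TP53INP1 the interaction was -0.01 (95% interval -0.50 to 0.48) and for TRIAP1 0.00 (-0.40 to 0.40), intervals that still allow differences of those sizes in the p53 siRNA effect. XPC was at 0.23 ± 0.14 (-0.10 to 0.55) and SESN1 at -0.18 ± 0.20 (-0.65 to 0.29).

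Other genes of the same pathways were counted from 9 lists, of which some share members. Among 34 other p53-activated targets, 10 fell and 0 rose in sip53 against siControl, where 2.1% of all entries fell and 1.76% rose. In siLATS1/2/p53 against siLATS1/2, 13 fell and 0 rose, where 3.22% of all entries fell and 11.3% rose. With the block, 22 were lower and 0 higher in the first comparison (10% and 16% of all entries). In the second, 22 were lower and 2 higher with the block (9.72% and 33.8% of all entries). The medians of the 34 were -0.43 and -0.45. The log2 differences in the respective comparisons were -2.62 ± 0.19 and -2.95 ± 0.19 for CDKN1A, -1.18 ± 0.13 and -1.60 ± 0.13 for MDM2, which marks p53 for degradation, and -1.10 ± 0.09 and -1.46 ± 0.09 for the lipid transporter gene ABCA12. Among 15 other reported p53 targets in repair and metabolism, 1 fell in each comparison: C12orf5, now named TIGAR, which lowers fructose-2,6-bisphosphate and so glycolytic flux, fell by 1.11 ± 0.12 in the first (adjusted p = 0.00913) and fell by 1.00 ± 0.12 in the second (0.00585, limma). Of that list, 0 rose in the first comparison and 2 in the second. With the block, 3 were lower and 1 higher in the first, and 2 lower and 5 higher in the second. The medians of that list were 0.05 and 0.07, near those of all entries.

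The partners of the repair and deoxynucleotide genes that passed the test without block or rescaling had all risen, few in sip53 against siControl and more in siLATS1/2/p53 against siLATS1/2. Of 30 other nucleotide excision repair genes, 0 fell and 1 rose in sip53 against siControl: RPA1, a subunit of the single-strand binding protein RPA, by 0.41 ± 0.08 (adjusted p = 0.0440, limma), a call lost on rescaling (0.0555). In siLATS1/2/p53 against siLATS1/2, 0 fell and 5 rose, with RPA1 at 0.70 ± 0.08 and RPA3 at 0.92 ± 0.14. Of 17 other genes of translesion synthesis and damage tolerance, 0 fell and 1 rose in the first comparison (POLD3, a polymerase delta subunit, by 0.46 ± 0.08, adjusted p = 0.0367, and 0.0530 on rescaling), and 0 fell and 6 rose in the second, with POLD3 at 0.67 ± 0.08 and the sliding clamp PCNA at 0.48 ± 0.08. Of 14 other deoxynucleotide supply genes, 0 fell and 2 rose in the first (RRM2, above, and the thymidylate kinase gene DTYMK by 0.45 ± 0.09, adjusted p = 0.0406, and 0.0534 on rescaling) and 0 fell and 5 rose in the second, with DTYMK at 0.83 ± 0.09. Against siControl, siLATS1/2 itself had medians of -0.17, -0.26 and -0.34 for these lists. There 1, 2 and 1 genes fell, RPA3 and PCNA among them, and 0 rose (all entries: 4.89% and 2.81%). In siLATS1/2/p53 against siControl, 3 of 30, 2 of 17 and 4 of 14 rose and 0, 0 and 1 fell (all entries: 9.07% and 5.48%). RPA1, POLD3, RRM2 and DTYMK rose there, while RPA3 and PCNA did not pass. The counts in the second comparison stand beside a general upward shift of 0.15 over all entries, where 11.3% of entries rose. Rescaled to remove that shift, the risers were 4 of 30, 3 of 17 and 4 of 14, where 4.47% of all entries rose, and 1 deoxynucleotide gene fell. Rescaling also made 1 excision repair gene and 1 deoxynucleotide gene fall in the first comparison. With the block and no rescaling, 5 of 30, 8 of 17 and 5 of 14 rose in the first comparison (16% of all entries). Of the same lists, 2, 0 and 1 fell there (10% of all entries). In the second, 7, 7 and 7 rose and 0, 1 and 1 fell, where 33.8% of all entries rose and 9.72% fell.

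The next lists were those around the sestrins, FDXR, TRIAP1 and TP53INP1. Without the block they held 0 or 1 call in each direction in sip53 against siControl and siLATS1/2/p53 against siLATS1/2. Of 33 genes of sestrin, GATOR, AMPK and mTORC1 signalling, none passed in sip53 against siControl. With the block 4 were higher and 1 lower, where 16% of all entries were higher and 10% lower. In siLATS1/2/p53 against siLATS1/2 the kinase gene MTOR rose by 0.38 ± 0.09 (adjusted p = 0.0312, and 0.165 on rescaling, limma). MTOR had fallen in siLATS1/2 against siControl and did not pass in siLATS1/2/p53 against siControl. The AMPK subunit gene PRKAA1 fell by 0.42 ± 0.12 in siLATS1/2/p53 against siLATS1/2 (0.0491, limma). Of 18 genes of iron-sulfur cluster assembly and ferredoxins, none passed in the first comparison (1 higher and 3 lower with the block) and ISCA2 rose in the second, by 0.74 ± 0.17 (0.0301, and 0.0621 on rescaling). Of these 18, 3 fell and 0 rose in siLATS1/2 against siControl, with a median of -0.19 (all entries: 4.89% and 2.81%, median -0.07). In siLATS1/2/p53 against siControl 1 fell and 0 rose, so ISCA2 did not pass there (all entries: 5.48% and 9.07%). Of 12 genes of PRELI lipid transfer and cardiolipin, none passed in sip53 against siControl (3 higher with the block). STARD7 rose in siLATS1/2/p53 against siLATS1/2, by 0.55 ± 0.09 (0.0102). Of 14 autophagy partners of TP53INP1, 1 fell in each, MAP1LC3B, at -0.76 ± 0.13 and -0.57 ± 0.13; it has a near-identical copy in the genome, so its reads may be shared. With the block, the second comparison had 11 higher and 2 lower of the 33, 5 higher and 1 lower of the 18, and 3 higher of the 12. The autophagy list with the block had 4 lower in the first comparison and 1 higher and 3 lower in the second. Of all entries, 10% were lower in the first, and 33.8% were higher and 9.72% lower in the second.

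**Figure D4:**
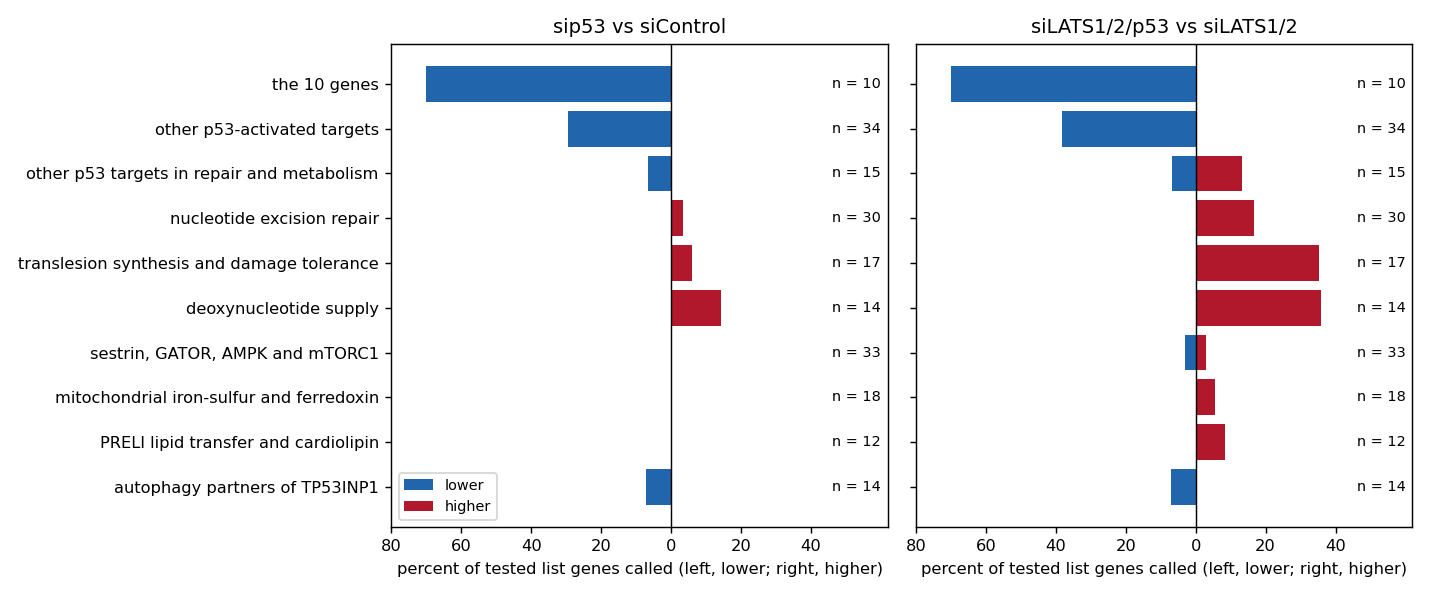
Percent of the tested genes of each list that fell (left of 0) or rose (right of 0) by the test, for sip53 against siControl and for siLATS1/2/p53 against siLATS1/2, with the number of genes tested at the right. The bars of the 10 genes (7 of 10) and of the other p53-activated targets (10 and 13 of 34) point to the lower side, and those of repair, translesion and deoxynucleotide genes to the higher side.

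Across the 8 libraries the 10 genes followed a common profile. Each gene centred on its own mean, their average was 0.50 and 0.55 in siControl, 0.43 and 0.46 in siLATS1/2, -0.42 and -0.50 in sip53, and -0.45 and -0.57 in siLATS1/2/p53. Pearson's r of each gene with the mean of the others ran from 0.871 for XPC and 0.878 for FDXR to 0.985 for RRM2B. These are descriptions over 8 shared libraries in which the p53 siRNA contrast dominates. Outside the set, SDC4, a heparan sulfate proteoglycan (r = 0.996), TP53TG1, a p53 target noncoding transcript (0.992), SLC39A9, a zinc transporter (0.990), and RASA1, a Ras GTPase-activating protein (0.990), had the profiles most like this average. Their differences in sip53 against siControl were -0.52 ± 0.08 for SDC4 (adjusted p = 0.0241, limma), -1.09 ± 0.12 for SLC39A9 (0.00913), -1.07 ± 0.09 for RASA1 (0.00464) and -0.48 ± 0.13 for TP53TG1 (0.102). Since these genes were picked by their likeness to this profile in the same libraries, these p-values are no separate test. Replicate 2 was lower than replicate 1 for 7 of the 10 genes in siLATS1/2/p53, 6 in sip53, 5 in siLATS1/2 and 3 in siControl. The largest such gap was that of RRM2B in siLATS1/2/p53, at -0.52.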

How the data were processed

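Polyadenylated RNA of 8 MCF10A cultures was sequenced, 2 per siRNA group, with the TruSeq version 2 kit, per the labels' protocols, which does not keep strand, so reads from a gene and an overlapping antisense partner cannot be told apart. TopHat and hg19 are named, without versions, per the submitters' processing notes; for the counter, the annotation and the scaling the sources used here name nothing. The deposited table holds log2 expression values with a floor of 5 set by the authors or their software, and the per-library files hold the same values. Base 2 was taken because low values on the linear scale were evenly spaced; that spacing gave the depth estimates (11.3 to 37.1 M reads), and no counts were recovered. Levels are not divided by transcript length, so they were not compared between genes.

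Entries that exceeded the floor in 2 or more libraries (12315 of 29991) were fitted with limma 3.58.1 (R 4.3.3): 4 group means, a mean-variance trend, 6 two-sided contrasts, Benjamini-Hochberg adjustment over all entries tested, threshold 0.05. "Rose" and "fell" refer to this test. The code was tested on simulated data. Same-numbered libraries come from the same batch of cells per the labels, and their deviations from group means correlated at 0.565 to 0.726 across the 6 pairs of groups, so the fit with a batch block is given where it changed a call. Rescaling set each library to the same median ratio over entries above the floor in all 8 libraries. Promoter windows were searched in Python 3.11.15.

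The 10 genes and the lists were chosen with earlier results of these data known. Named are the 10 genes, the LATS1/2 targets, CDKN1A and MDM2, up to 2 genes per list with the smallest p among those called in either p53 siRNA comparison, and the 5 genes whose profile correlated best with the 10 genes' mean. One gene of that last rule and the level of the p53 siRNA's target are not reported here.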

Additional observations from a re-analysis of the deposited data

How the results depend on the processing

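With 2 libraries a group, how many genes passed depended on the model and the libraries. The 23 falls called among the 10 genes were no longer past the threshold in 94 of 391 refits over 17 settings. None changed direction, but that was largely fixed in advance. The block, the filters and the trend left each difference as it was. Libraries of the compared groups did not overlap for these genes, so leaving any out could not reverse one. In what follows counts are in the order siLATS1/2, sip53 and siLATS1/2/p53 against siControl, siLATS1/2/p53 against siLATS1/2, siLATS1/2/p53 against sip53, and the interaction. As reported, 948, 475, 1792, 1791, 451 and 0 of all entries passed, and 0, 7, 9, 7, 0 and 0 of the 10 genes. With the replicate block these were 3937, 3199, 4832, 5361, 2720 and 250 entries and 2, 10, 10, 9, 1 and 0 genes, and with the block after rescaling 3449, 3021, 4685, 4194, 2789 and 81 entries and 1, 10, 10, 10, 1 and 0 genes. Rescaling alone gave 8 genes in sip53 against siControl and 10 in siLATS1/2/p53 against siLATS1/2. Of all calls, the share that was higher went on rescaling from 36.5% to 55.6% in siLATS1/2 against siControl, 45.7% to 26.2% in sip53 against siControl, 62.3% to 47.4% in siLATS1/2/p53 against siControl and 77.9% to 45.8% in siLATS1/2/p53 against siLATS1/2. Without a filter on low values, when the entries at the floor enter the fit, 44, 20, 256, 187, 27 and 5 entries and 0, 0, 3, 2, 0 and 0 genes passed. Fitting only the groups compared gave 243, 18, 981, 1176 and 214 entries and 2 genes in sip53 against siControl. Dropping the mean-variance trend gave 294 entries there. Without the 2 shallowest libraries, which left siControl and siLATS1/2/p53 with 1 library each, 10, 0, 14, 0, 22 and 0 entries passed, and among the 10 genes only RRM2B, in siLATS1/2/p53 against siControl (1 gene, with 0 in the other comparisons). Leaving out 1 library at a time gave 84 to 759, 23 to 186, 626 to 1350, 34 to 1896, 74 to 424 and 0 entries, and 0, 1 to 6, 7 to 9, 1 to 7, 0 and 0 genes; the lone library of a group was taken to vary like the others, and the batch was not modelled. Pseudocount 1 and a stricter filter changed no count by over 1.5 times. What made these counts move was not tested. Values below the floor are unknown, and the depths are estimates.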
